A study of Mus musculus with 12 samples.

Results

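The photoreceptor lineage genes are 9 genes that act in, or mark, the cells that become rods and cones: Crx, Otx2, Nrl, Nr2e3, Thrb, Rxrg, Prdm1, Rcvrn and Aipl1. They were chosen by name from retinal biology, as the rows with these symbols in both of the deposited expression tables. All 9 of 9 were found among the 38720 genes of each table, and all 9 had enough reads to be tested in both.

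Photoreceptors arise from retinal progenitors that switch on OTX2, a homeodomain transcription factor, which in turn switches on its relative CRX, the activator of most photoreceptor genes. PRDM1 (Blimp1) is a repressor that holds the newborn cell to the photoreceptor rather than the bipolar fate. NRL, a leucine zipper factor, and its target NR2E3, an orphan nuclear receptor, direct the cell to become a rod, whereas TRβ2, a thyroid hormone receptor isoform of Thrb, and RXRγ, the product of Rxrg, pattern the opsins of cones. Rcvrn encodes recoverin, a calcium sensor of phototransduction, and Aipl1 encodes a chaperone of the phosphodiesterase. In the newborn mouse retina cones have mostly been born and rods are still being made.

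Gene expression was compared between mice with a conditional deletion of Ezh2 (mKO) and WT mice, all of the C57/BL6 strain at P0, the day of birth. The mKO mice carried Math5-Cre together with Ezh2 flox/flox alleles, whose floxed exons encode the SET domain, the catalytic part of this histone methyltransferase of polycomb repressive complex 2. The study describes Math5-Cre as a knock-in of Cre, an allele that neither wild type mice nor floxed littermates carry. Its effect was not tested apart from that of the Ezh2 deletion. Math5 (Atoh7) is switched on in progenitors that give rise to retinal ganglion cells (RGCs), and Math5-Cre acts in only a part of the RGCs and of other retinal cells, so that both genotypes held cells with intact Ezh2. Retinas were dissociated and RGCs were bound to magnetic beads through Thy-1 (CD90), and the cells that remained are the non-RGCs. Each genotype and fraction had 3 libraries, 12 in all, and the labels give the controls as wild type. The study's methods name littermates with floxed alleles as controls unless stated otherwise, and whether the control mice of these libraries carried floxed alleles could not be settled.

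Promoter sequences are printed for Crx, Nrl and Nr2e3, which have 1 promoter each and were called in both fractions. They are also printed for Aipl1 and Thrb, which hold more than 1 of the searched motifs and were called in neither. RefSeq on GRCm38.p6 gave a promoter for 8 of the 9 members, 13 promoters in all since Otx2, Rxrg and Thrb have several, and the 250 bases before the start of transcription are shown from 5′ to 3′. Capitals mark TAATCC, the core read by the CRX and OTX2 homeodomains (GGATTA on the other strand), TGCTGA, a core of the site bound by NRL (TCAGCA), and AGGTCA, a core of the site bound by nuclear receptors (TGACCT). None of these 3 motifs overlaps another in the printed stretches.
Crx (chr7:15879956-15880205, minus strand): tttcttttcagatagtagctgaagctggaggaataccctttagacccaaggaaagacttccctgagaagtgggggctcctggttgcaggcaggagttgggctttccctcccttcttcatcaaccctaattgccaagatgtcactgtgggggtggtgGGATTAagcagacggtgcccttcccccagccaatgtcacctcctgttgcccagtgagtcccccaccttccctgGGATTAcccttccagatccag
Nrl (chr14:55524253-55524502, minus strand): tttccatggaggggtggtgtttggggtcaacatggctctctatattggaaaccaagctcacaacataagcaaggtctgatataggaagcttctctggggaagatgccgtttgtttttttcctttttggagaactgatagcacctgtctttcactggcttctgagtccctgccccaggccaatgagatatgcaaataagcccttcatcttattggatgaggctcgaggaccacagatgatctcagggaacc
Nr2e3 (chr9:59950080-59950329, minus strand): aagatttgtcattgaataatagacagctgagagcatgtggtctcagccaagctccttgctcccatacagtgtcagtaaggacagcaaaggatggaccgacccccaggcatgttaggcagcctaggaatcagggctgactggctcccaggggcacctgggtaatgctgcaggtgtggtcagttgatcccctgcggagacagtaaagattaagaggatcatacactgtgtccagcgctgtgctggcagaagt
Aipl1 (chr11:72037510-72037759, minus strand): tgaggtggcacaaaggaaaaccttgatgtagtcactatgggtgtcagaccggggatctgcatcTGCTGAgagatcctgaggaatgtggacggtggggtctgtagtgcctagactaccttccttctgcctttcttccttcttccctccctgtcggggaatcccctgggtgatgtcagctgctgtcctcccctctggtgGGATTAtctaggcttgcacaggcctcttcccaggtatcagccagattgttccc
Thrb, first of 2 promoters (chr14:17660710-17660959, plus strand): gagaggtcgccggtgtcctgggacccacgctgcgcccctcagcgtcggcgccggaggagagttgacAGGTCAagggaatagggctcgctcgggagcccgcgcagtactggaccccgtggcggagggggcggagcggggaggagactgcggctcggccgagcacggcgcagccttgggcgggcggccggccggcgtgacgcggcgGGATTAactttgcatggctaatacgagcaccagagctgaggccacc
The Crx promoter held GGATTA 94 and 21 bases before the start. In the Aipl1 promoter GGATTA stood 53 bases before the start and again 10 bases after it, outside the printed stretch, and TGCTGA stood 187 bases before it. The first Thrb promoter held AGGTCA 184 and GGATTA 46 bases before the start. The second Rxrg promoter, which is not printed, held AGGTCA 88 bases before the start, and Rxrg was called in neither fraction. The Nrl and Nr2e3 promoters held none of the 3 motifs in the 300 bases searched, which run to 50 bases after the start. TAATCC on either strand was found in 4 of the 13 promoters of members (Crx, Aipl1, Thrb and 1 of Otx2), against 7.06% of the 32851 promoters in the table, TGCTGA in 3 of 13 against 19.5%, and AGGTCA in 2 of 13 against 16.3%. These are matches of letters only.

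The reads of each library were recovered from the deposited group means, and the letters A, B and C order the libraries of a group by falling depth. Depth ran from 7139633 to 13014004 reads on genes per library, and mKO non-RGC library C was the shallowest. Values are normalized reads, that is, reads divided by the size factor of the library, and a gene was called where limma gave an adjusted p under 0.05 over all genes tested. Over all genes, 16.3% of 16085 were called higher and 21.2% lower in mKO RGCs, and 4.18% of 15326 were called higher and 6.43% lower in mKO non-RGCs. Reads of the whole Ezh2 gene, most of which lies outside the floxed exons, overlapped between genotypes in both fractions, with adjusted p = 0.64 and 0.58 by limma. Fold changes fell with the GC content of the gene (Spearman's correlation −0.71 over 12239 genes in RGCs and −0.51 over 11693 in non-RGCs). Genes with fewer than 50 mean normalized reads were left out of this comparison. Of the genes kept, 6605 in RGCs and 6315 in non-RGCs had the GC content of the members, 44.1 to 54.6%. Their median log2 fold change was −0.03 in RGCs and −0.06 in non-RGCs. A pooled median does not show how fold changes ran with GC content inside that range. WT RGC library C stood apart in the members, since 7 of the 9 were highest there among the 6 RGC libraries. WT non-RGC library C was low in several late photoreceptor genes. Some results that rest on either library are also given without it.

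At P0 the lineage genes were abundant in both fractions, and Crx led the order in all 4 groups. Levels between genes are given as RPKM, reads per kilobase of exon scaled to all reads on genes of the library, as mean ± SD of 3 libraries. In WT non-RGCs the level of Crx was 87.7 ± 5.56, followed by Otx2 at 60.6 ± 3.89, Prdm1 at 56.9 ± 2.63, Nr2e3 at 38.9 ± 6.04 and Nrl at 26.6 ± 2.94. Below these came Rxrg at 16.5 ± 0.996, Aipl1 at 15.3 ± 4.57, Rcvrn at 14.3 ± 8.74 and Thrb at 7.82 ± 0.692. Among neighbours in this order, the libraries of Otx2 and Prdm1 overlapped, as did those of Rxrg, Aipl1, Rcvrn and Thrb, and the other steps did not overlap. In mKO non-RGCs the order was the same except that Rxrg (22.0 ± 4.05) stood above Nrl (17.8 ± 3.15), and these overlapped.

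In RGCs, Rxrg ranked far higher than in non-RGCs. In WT RGCs the level was 48.1 ± 9.39 for Crx, 33.4 ± 7.84 for Otx2, 32.0 ± 2.38 for Rxrg and 26.5 ± 6.68 for Prdm1, and the libraries of all neighbours in the order overlapped except at the step from Nrl (13.1 ± 2.94) to Aipl1 (6.07 ± 1.97). In mKO RGCs, Rxrg came second at 32.2 ± 1.44, overlapping Crx at 34.1 ± 1.70 and lying above Otx2 at 26.2 ± 1.34. Thrb ranked last in WT RGCs (3.83 ± 1.46) and stood above Aipl1 and Rcvrn in mKO RGCs (5.94 ± 0.137).

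The lineage genes were also well represented in the RGC fraction. In CPM, reads of a gene scaled to all reads on genes of the library, the RGC mean of Crx was 54.8% of the non-RGC mean in WT and 51.2% in mKO mice. Over the 8 members other than Rxrg this percentage ran from 39.6 (Aipl1) to 55.1 (Otx2) in WT, and from 27.3 (Rcvrn) to 56.4 (Prdm1) in mKO mice. Rxrg went the other way, at 194% in WT and 146% in mKO mice. Thy1, the gene of the bead antigen, was measured at 189.6 CPM in WT RGCs and 0.466 in WT non-RGCs, but at 124 and 8.03 in mKO mice. The percentage was lower in mKO than in WT mice for 6 members besides Rxrg (Crx, Otx2, Nrl, Nr2e3, Rcvrn and Aipl1) and higher for Thrb (49.0 to 51.4) and Prdm1 (46.6 to 56.4). Since each fraction has a table with its own normalization, no test was made between fractions.

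In RGCs, 4 of the 9 members were lower in mKO mice and none was higher: the pan-photoreceptor activators Crx and Otx2 and the rod genes Nrl and Nr2e3. That is 44.4% of the members, against 21.2% of all genes called lower in RGCs and 16.3% called higher. In these bulk samples, fewer photoreceptor precursors and less RNA of these genes in each cell cannot be told apart. The part of the separation by Thy-1 in these falls was not tested. At an unadjusted p under 0.05 in limma 1 member, Thrb, was higher, and limma with voom called the same number of members, 4 lower and 0 higher. The median log2 fold change of the 9 members was −0.45, against −0.00 over all 16085 genes tested.

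Crx lies at chr7:15865947-15879968, minus strand in GRCm38. Its normalized reads were 1672, 1717 and 2303 in WT RGC libraries A, B and C and 1277, 1246 and 1189 in mKO RGC libraries A, B and C. The groups did not overlap, and WT library C was the highest of the 6. Crx in mKO RGCs was 65.9% of WT (log2 fold change −0.60 ± 0.12 (SE), 95% interval −0.89 to −0.31, adjusted p = 0.0087 by limma). Without WT library C the log2 fold change was −0.45 and the call was kept, with adjusted p = 0.00019 by limma.

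Otx2 (chr14:48657677-48673819, minus strand), the gene upstream of Crx, had 1533, 1531 and 2215 normalized reads in WT RGCs and 1323, 1263 and 1227 in mKO RGCs. All mKO libraries lay below all WT libraries, although WT libraries A and B stood close to the mKO values and library C well above them. The fall to 73.4% of WT passed the test narrowly (log2 fold change −0.45 ± 0.14 (SE), 95% interval −0.78 to −0.11, adjusted p = 0.045 by limma). The call was lost without any 1 of the mKO libraries, with CPM in place of size factors (adjusted p = 0.13 by limma), and when every gene with a read was tested (0.055). Without WT library C the log2 fold change shrank to −0.27. In the GENCODE annotation an antisense gene, Otx2os1, and an uncharacterized transcript overlap exons of Otx2, and since no source used here states that reads were counted by strand, the Otx2 count is uncertain to that extent.

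Nrl and Nr2e3, which set the rod fate, fell further than Crx in the estimates. Nrl (chr14:55518978-55524981, minus strand) had 806, 828 and 1161 normalized reads in WT RGCs and 569.8, 576 and 446 in mKO RGCs, with no overlap. Its mKO level was 57.4% of WT (log2 fold change −0.80 ± 0.17 (SE), 95% interval −1.19 to −0.41, adjusted p = 0.0093 by limma). Nr2e3 (chr9:59942771-59960659, minus strand) had 583, 655 and 1001 in WT RGCs and 416, 447 and 327 in mKO RGCs, again with no overlap and with WT library C the highest. It stood at 54.2% of WT (log2 fold change −0.88 ± 0.21 (SE), 95% interval −1.39 to −0.38, adjusted p = 0.017 by limma). Without mKO library C the call of Nr2e3 was lost (adjusted p = 0.066 by limma), so that 2 members rather than 4 remained called. With 1 library left out at a time, the log2 fold change ran from −0.89 to −0.63 for Nrl and from −1.04 to −0.65 for Nr2e3. Both falls were smallest without WT library C. The exons of Nr2e3 overlap a noncoding gene on the same strand, Gm15507, which held at most 5 reads in any library.

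Recoverin and Aipl1, which come on later in the photoreceptor, did not pass the test in RGCs. Rcvrn (chr11:67695326-67703333, plus strand) had 44.6, 78.2 and 100.4 normalized reads in WT RGCs and 43.6, 50.7 and 25.4 in mKO RGCs. The groups overlapped, and only 27 to 86 reads stood behind each value. Rcvrn lies within an intron of Glp2r, which had 17 to 37 reads in the RGC libraries. The log2 fold change was −0.86 (95% interval −1.75 to 0.02 and adjusted p = 0.11) by limma, an interval that holds both no change and falls larger than the estimate for any called member. Aipl1 (chr11:72027963-72037509, minus strand) had 201, 191 and 326 in WT RGCs and 178, 193 and 152 in mKO RGCs, with WT library C far above the others and the remaining libraries mixed. Its log2 fold change was −0.42 (95% interval −0.94 to 0.10 and adjusted p = 0.17) by limma.

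Of the genes that pattern cones, neither was called in RGCs, and Thrb was the member with the one positive estimate. Thrb (chr14:17660261-18038090, plus strand) had 267, 291 and 505 normalized reads in WT RGCs and 496, 516 and 503 in mKO RGCs. WT libraries A and B lay far below all mKO libraries, whereas WT library C reached the mKO values, so that the groups overlapped. The log2 fold change was 0.57 (95% interval 0.04 to 1.11 and adjusted p = 0.088) by limma. Without WT library C it was 0.86 and was called higher, with adjusted p = 8.4e-05 by limma, so that 1 library decided this result. Reads were counted per gene, and the cone isoform TRβ2 was not separated from the others.

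Rxrg (chr1:167598384-167639623, plus strand) had 989, 864 and 908 normalized reads in WT RGCs and 813, 891 and 846 in mKO RGCs, which overlapped. Its log2 fold change was −0.11 (95% interval −0.28 to 0.06 and adjusted p = 0.25) by limma, the narrowest interval of the 9 members, and its sign turned positive with CPM and with the trends with GC content removed. Prdm1 (chr10:44437177-44528501, minus strand) had 1601, 1583 and 2363 in WT RGCs and 1665, 1564 and 1635 in mKO RGCs. WT libraries A and B lay within the mKO range and WT library C stood alone above it. The log2 fold change of Prdm1 was −0.16 (95% interval −0.52 to 0.19 and adjusted p = 0.42) by limma, and without WT library C it was 0.03.

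**Figure D1:**
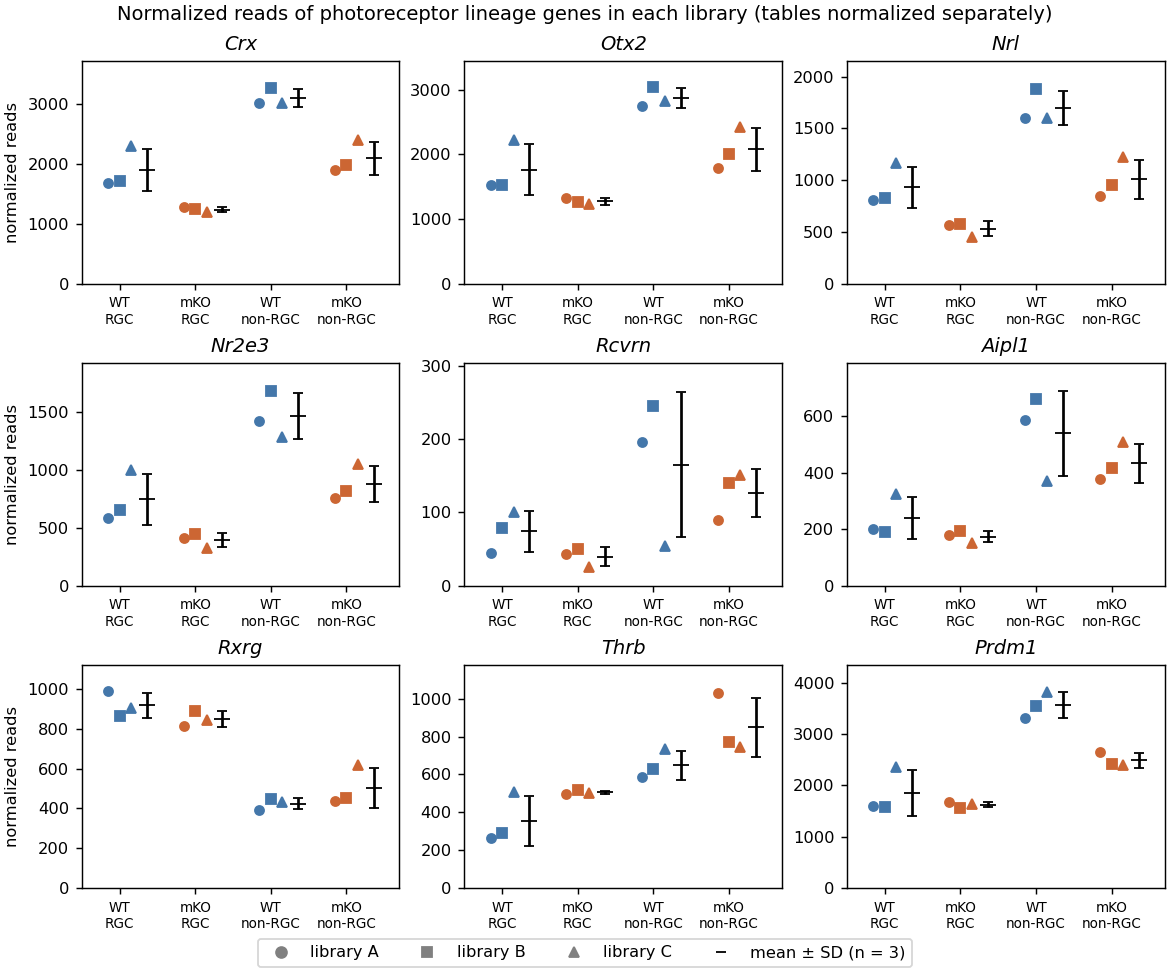
Normalized reads of the 9 members (vertical axes, starting at 0) in each of the 12 libraries, by genotype and fraction; circles, squares and triangles are libraries A, B and C, and the bar beside them is the mean ± SD of 3 libraries. In RGCs all mKO libraries lie below all WT libraries for Crx, Otx2, Nrl and Nr2e3, and WT library C is the highest of the RGC libraries for 7 of the 9 genes.

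In non-RGCs, where every member but Rxrg had a higher CPM than in RGCs, 5 of the 9 members were lower in mKO mice and none was higher. Crx, Otx2, Nrl and Nr2e3 were called again, and Prdm1 was called here and not in RGCs. These are 55.6% of the members, against 6.43% of all genes called lower in non-RGCs and 4.18% called higher. At an unadjusted p under 0.05 in limma 1 member, again Thrb, was higher, and voom called 5 lower and 0 higher. No member was called without mKO library B or without WT library B, 2 (Nrl and Prdm1) were called without WT library A, and 4 or 5 without each of the other libraries. Over all genes, 93 of 15318 were lower without mKO library B, 221 of 15305 without WT library B and 476 of 15340 without WT library A. The median log2 fold change of the members was −0.48, against −0.03 over all 15326 genes tested.

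Crx had 3012, 3274 and 3022 normalized reads in WT non-RGC libraries A, B and C and 1893, 1981 and 2403 in mKO non-RGC libraries A, B and C. The groups did not overlap, the WT libraries were close together and mKO library C was the highest of the mKO libraries. The mKO level was 67.1% of WT (log2 fold change −0.57 ± 0.12 (SE), 95% interval −0.85 to −0.30, adjusted p = 0.022 by limma). Otx2 had 2738, 3037 and 2817 in WT and 1787, 2006 and 2429 in mKO non-RGCs, also without overlap. It stood at 71.9% of WT (log2 fold change −0.48 ± 0.13 (SE), 95% interval −0.77 to −0.18, adjusted p = 0.048 by limma), close to the threshold.

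The rod genes showed the largest falls among the members. Nrl had 1602, 1882 and 1596 normalized reads in WT and 851, 953 and 1220.1 in mKO non-RGCs. The highest mKO library of Nrl was still well under the lowest WT library, and the mKO level was 59.0% of WT (log2 fold change −0.76 ± 0.15 (SE), 95% interval −1.10 to −0.42, adjusted p = 0.02 by limma). Nr2e3 had 1425, 1681 and 1288 in WT and 758, 821 and 1055 in mKO non-RGCs, which did not overlap, and stood at 59.7% of WT (log2 fold change −0.74 ± 0.16 (SE), 95% interval −1.10 to −0.38, adjusted p = 0.023 by limma). Prdm1, the repressor of the bipolar fate, had 3308, 3554 and 3823 in WT and 2658, 2418 and 2389 in mKO non-RGCs. Its groups were far apart relative to their spread, at 69.9% of WT (log2 fold change −0.52 ± 0.11 (SE), 95% interval −0.76 to −0.28, adjusted p = 0.021 by limma).

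Rcvrn and Aipl1 turned on WT non-RGC library C. Rcvrn had 196, 245 and 54.2 normalized reads in WT and 89.4, 140.0 and 151 in mKO non-RGCs, so that the lowest and the highest values both came from WT mice. Its log2 fold change was −0.15 (95% interval −1.26 to 0.95 and adjusted p = 0.86) by limma, and −0.82 without WT library C (adjusted p = 0.079 by limma). Aipl1 had 585, 661 and 372 in WT and 376, 415 and 508 in mKO non-RGCs, again with WT library C the lowest of all 6. The log2 fold change of Aipl1 was −0.29 (95% interval −0.79 to 0.22 and adjusted p = 0.42) by limma, and −0.53 without that library.

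The genes that pattern cones had positive estimates in non-RGCs that did not pass the test. Thrb had 586, 628 and 735 normalized reads in WT and 1030.3, 773 and 747 in mKO non-RGCs. All mKO libraries lay above all WT libraries, as for 17.5% of all genes tested, but mKO library C stood just over WT library C. The log2 fold change of Thrb was 0.38 (95% interval 0.01 to 0.75 and adjusted p = 0.16) by limma. Rxrg had 392, 446 and 435 in WT and 438, 455 and 617 in mKO non-RGCs, with mKO library C high and the rest mixed. Its log2 fold change was 0.23 (95% interval −0.15 to 0.61 and adjusted p = 0.39) by limma. The CPM of Rxrg in RGCs was 194% of that in non-RGCs in WT and 146% in mKO mice, and 8 of 12 RGC markers were higher in mKO non-RGCs. The part of RGC RNA in the Rxrg values of non-RGCs was not tested.

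Among the 9 members, all mKO libraries lay below all WT libraries for 4 genes in RGCs and 5 in non-RGCs, the same genes that were called, against 28.2% and 19.2% of all genes tested. All mKO libraries lay above all WT libraries for no member in RGCs and for Thrb alone in non-RGCs, against 24.8% and 17.5% of all genes.

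**Figure D2:**
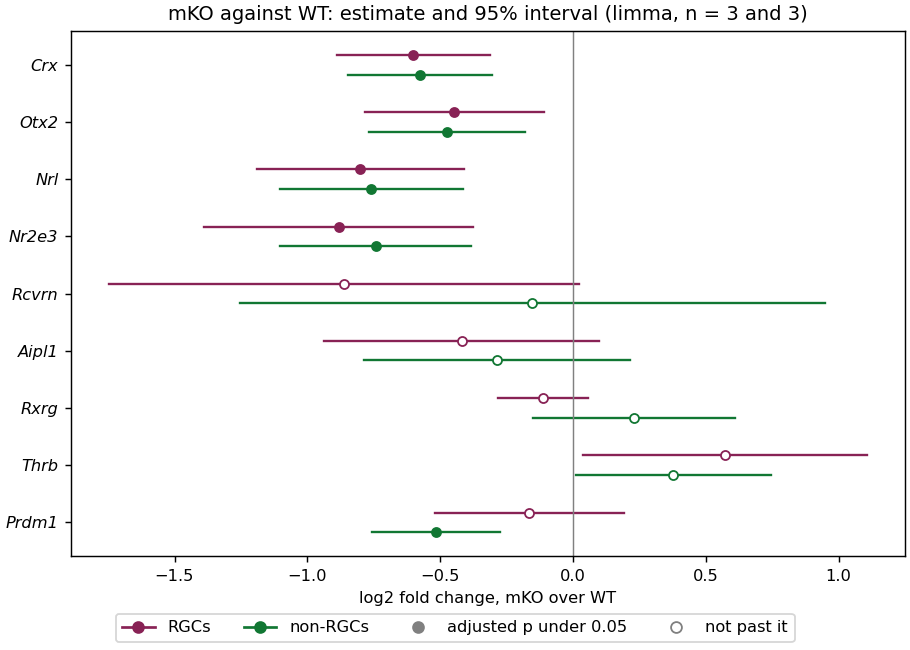
Log2 fold change of mKO over WT (horizontal axis, points) with its 95% interval (lines) for the 9 members in RGCs and non-RGCs, 3 libraries a group; filled points passed an adjusted p of 0.05 in limma. Crx, Otx2, Nrl and Nr2e3 are filled and below 0 in both fractions, Prdm1 in non-RGCs, and Thrb lies above 0 in both without being filled.

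Whether the mKO effect differed between the fractions was tested as an interaction over all 12 libraries. For the 9 members no difference was called, with adjusted p from 0.54 to 0.96 by limma, none had an unadjusted p under 0.05, and voom also called none. Over all 14894 genes, 0.107% were called with a lower and 0% with a higher effect in RGCs, and 1499 genes had an unadjusted p under 0.05. For Crx the difference was −0.03 (95% interval −0.40 to 0.35), for Nrl −0.04 (−0.55 to 0.47) and for Otx2 0.03 (−0.41 to 0.46). Prdm1, called in non-RGCs alone, had a difference of 0.35 (−0.05 to 0.76), so that its effect was not shown to differ between fractions. For Rcvrn the interval ran from −2.22 to 0.81, which leaves its difference almost unmeasured.

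The members were also compared by their reads relative to Crx, and whether they changed in unequal proportion was not tested. Setting each gene against Crx in the same library needs no scaling between libraries, but it leaves the trend with GC content in place. In RGCs the log2 fold changes fell in the order of GC content from Thrb (44.1%), Prdm1 (46.3%) and Otx2 (46.8%) to Crx (49.2%), Nrl (51.7%) and Nr2e3 (53.9%). Rcvrn (53.9%), Aipl1 (54.1%) and Rxrg (54.6%) stood outside that order. The part of GC content in the ratios to Crx was not tested. Per 100 reads of Crx, Nrl had 48.2, 48.2 and 50.4 reads in WT and 44.6, 46.3 and 37.5 in mKO RGC libraries A, B and C, and 53.2, 57.5 and 52.8 and 45.0, 48.1 and 50.8 in WT and mKO non-RGC libraries. Nrl was therefore lower relative to Crx in every mKO library of both fractions. Of all genes tested, 0.908% in RGCs and 1.1% in non-RGCs lay wholly lower relative to Crx in mKO libraries. The fall of Crx itself keeps that share low. Nr2e3 had 34.8, 38.1 and 43.5 against 32.6, 35.9 and 27.5 in RGCs, and 47.3, 51.3 and 42.6 against 40.1, 41.4 and 43.9 in non-RGCs, and overlapped in both.

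Other members were higher relative to Crx in every mKO library, as were 67.5% of all genes in RGCs and 54.4% in non-RGCs, a background that the fall of Crx itself sets. Thrb had 15.9, 16.9 and 21.9 reads per 100 Crx reads in WT and 38.9, 41.5 and 42.3 in mKO RGCs, and 19.5, 19.2 and 24.3 in WT and 54.4, 39.0 and 31.1 in mKO non-RGCs. The ratio of Thrb to Crx was higher in every mKO library than in any WT library of the same fraction. In mKO non-RGCs this ratio fell from library A to library C, in the order of depth, and the part of depth in it was not tested. Rxrg had 59.2, 50.3 and 39.4 against 63.7, 71.5 and 71.2 in RGCs and 13.0, 13.6 and 14.4 against 23.1, 22.9 and 25.7 in non-RGCs. The part of RGC RNA in the latter ratios was not tested. Otx2 had 91.6, 89.1 and 96.2 against 104, 101 and 103 in RGCs and 90.9, 92.8 and 93.2 against 94.4, 101 and 101 in non-RGCs, a small shift without overlap. Prdm1 did not overlap in RGCs (92.2 to 103 in WT and 126 to 138 in mKO) and overlapped in non-RGCs (109 to 127 and 99.4 to 140.4), and Rcvrn and Aipl1 overlapped in both fractions. In all, 4 of 8 members lay wholly higher and 1 wholly lower relative to Crx in mKO RGCs, and 3 higher and 1 lower in mKO non-RGCs. In both fractions the wholly higher members were a smaller share than among all genes.

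**Figure D3:**
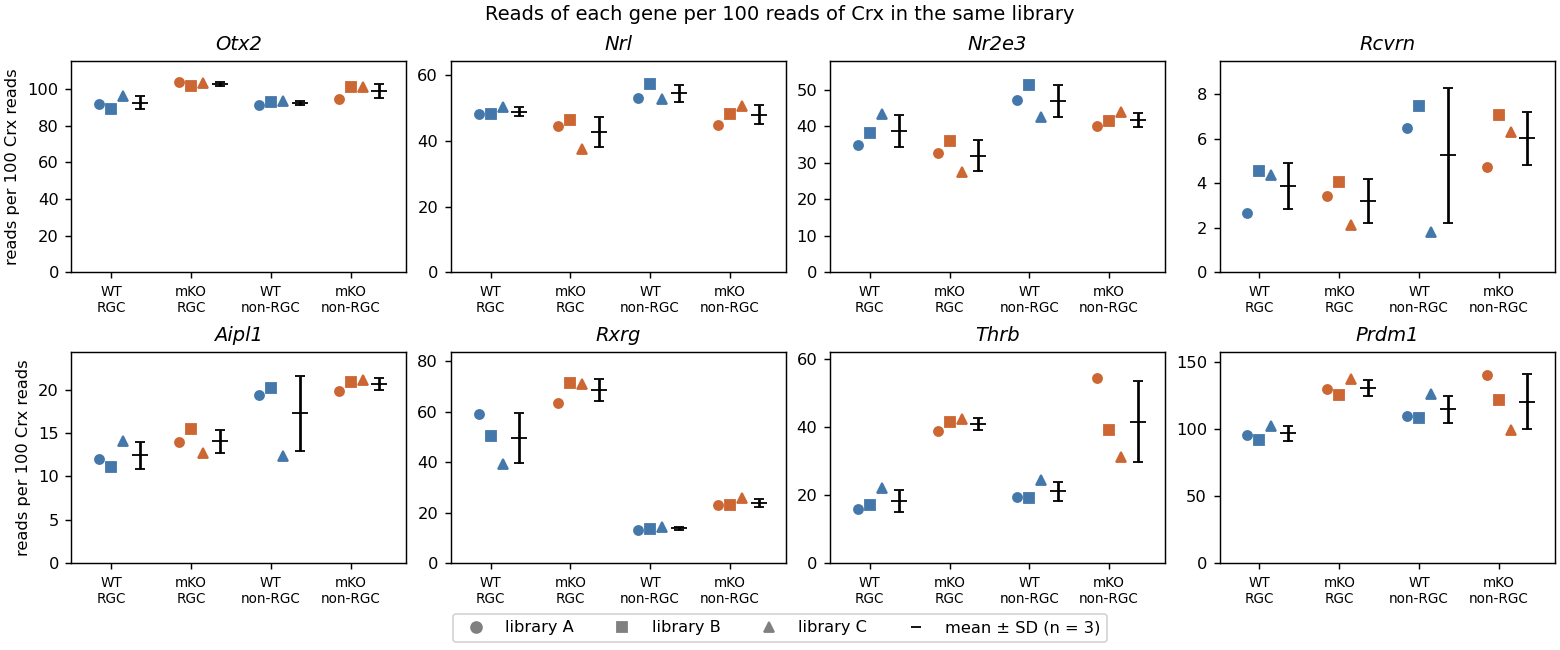
Reads of 8 members per 100 reads of Crx in the same library (vertical axes, starting at 0), by genotype and fraction; symbols are libraries A, B and C and bars the mean ± SD of 3 libraries. Nrl is lower relative to Crx in mKO libraries of both fractions, and the values of Thrb span 15.9 to 24.3 over the 6 WT libraries but 31.1 to 54.4 over the 6 mKO ones.

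The genes that these factors serve were followed in a list of 38 genes of phototransduction and the outer segment, of which 36 were tested. In RGCs, 12 of the 36 (33.3%) were lower in mKO mice and 1 was higher, against 21.2% and 16.3% of all genes, and the median log2 fold change of the list was −0.33. Without WT RGC library C the counts were 13 lower and 6 higher. Over all 16125 genes tested without that library, 4454 were lower and 3730 higher. In non-RGCs, 2 were lower and 2 higher, 5.56% each, which is near the 6.43% and 4.18% of all genes, with a median of −0.27. Without WT non-RGC library C the count of lower genes in non-RGCs was 10, when 890 of all 15379 genes tested were lower.

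Single subunits of the rod channel and of the rod phosphodiesterase and genes of the discs were among those called lower in RGCs. Cngb1, a subunit of the rod channel, had 208, 280.1 and 228 normalized reads in WT and 113, 118 and 101 in mKO RGCs, which did not overlap. Cngb1 changed by −1.10 ± 0.15, adjusted p = 0.002, Pde6b, a catalytic subunit of the rod phosphodiesterase, by −0.97 ± 0.15, adjusted p = 0.0027, and Pde6g, its inhibitory subunit, by −0.84 ± 0.20, adjusted p = 0.017 by limma. The other subunits, Cnga1 of the channel (−0.39 ± 0.22, adjusted p = 0.19) and Pde6a of the phosphodiesterase (−0.43 ± 0.40, adjusted p = 0.44 by limma), did not pass the test. The disc protein gene Prph2 changed by −0.87 ± 0.10, adjusted p = 0.0012, and its partner Rom1 by −0.77 ± 0.11, adjusted p = 0.0022 by limma. Rbp3, the retinoid carrier of the photoreceptor matrix, fell in RGCs (−0.76 ± 0.10, adjusted p = 0.0014) and in non-RGCs (−0.81 ± 0.10, adjusted p = 0.006 by limma). In RGCs the calls of Cngb1, Pde6b and Prph2 held under every setting run, and that of Pde6g was lost without mKO library B, without mKO library C and with the trend with GC content removed.

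Beside Rbp3, Rom1 was called lower in non-RGCs (−0.66 ± 0.18, adjusted p = 0.049 by limma), a call that was lost without any 1 library other than mKO library C.

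The genes of the list that were called higher were Cngb3 in RGCs, and Cngb3 and Pde6c in non-RGCs, all of the cone machinery. Cngb3, a subunit of the cone channel, had 249 to 295 normalized reads in WT and 425 to 469 in mKO RGCs (log2 fold change 0.77 ± 0.10, adjusted p = 0.0016 by limma), and 285 to 513 and 796 to 878 in non-RGCs (0.97 ± 0.22, adjusted p = 0.026). Pde6c, the cone phosphodiesterase, had 219.7 to 259.6 in WT and 345 to 415 in mKO non-RGCs (0.68 ± 0.16, adjusted p = 0.031 by limma). Neither gene overlapped in those comparisons. The call of Cngb3 was lost in both fractions, and that of Pde6c in non-RGCs, with the trend with GC content removed (adjusted p = 0.057, 0.10 and 0.073 by limma). In non-RGCs the call of Cngb3 was also lost without any 1 of the mKO libraries, and that of Pde6c without any 1 library other than WT library C. The other tested cone genes were not called in either fraction. Of the 9 cone genes tested, 4 had estimates below 0 and 5 above 0 in RGCs. In non-RGCs 2 lay below 0 and 7 above 0. Genes were sorted into rod and cone genes after their values were seen.

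**Figure D4:**
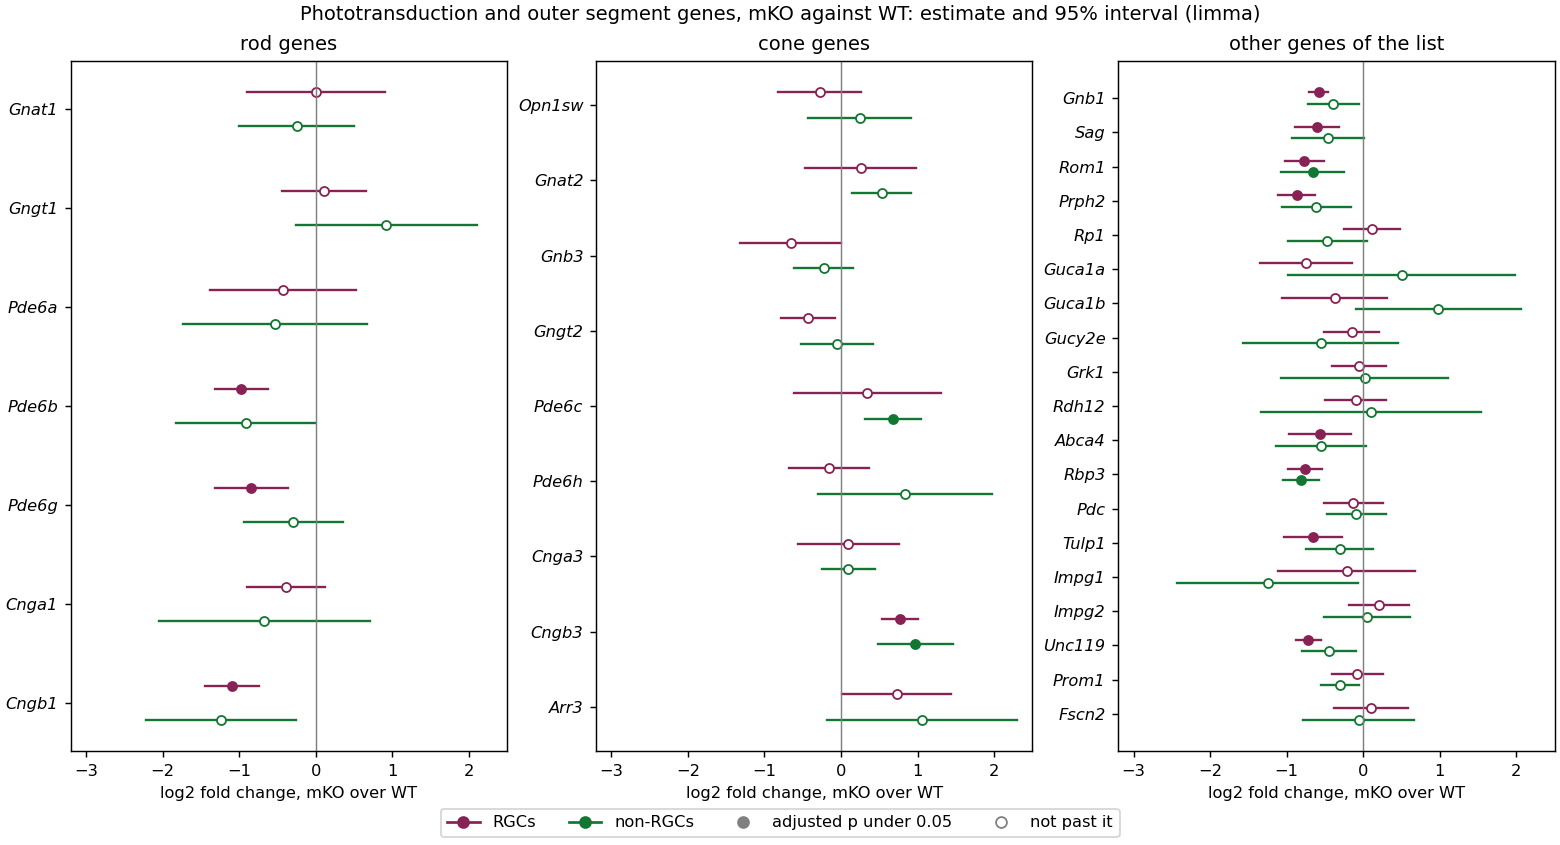
Log2 fold change of mKO over WT (horizontal axes, points) with its 95% interval (lines) for tested genes of phototransduction and the outer segment in RGCs and non-RGCs, sorted into rod genes (all but 1 shown), cone genes and the other genes; filled points passed an adjusted p of 0.05 in limma. Filled points lie below 0 for Cngb1, Pde6b and Pde6g in RGCs and above 0 for Cngb3 in both fractions and Pde6c in non-RGCs, and most other rod and cone genes are open.

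Of 17 other regulators of photoreceptor fate, 8 were lower and none higher in mKO RGCs, and likewise 8 lower and none higher in mKO non-RGCs, 47.1% in each, with median log2 fold changes of −0.51 and −0.72, against 21.2% and 6.43% of all genes. In either fraction none was higher at an unadjusted p under 0.05 in limma, and voom gave the same counts. Without mKO non-RGC library B none of the 17 was called in non-RGCs and without WT non-RGC library B 4 were, and with the trend with GC content removed 1 was. Over all genes, 93 of 15318, 221 of 15305 and 73 of 14473 were lower in non-RGCs under these settings in turn. Samd11, which acts in rods downstream of CRX, had the largest fall in RGCs, from 853 to 959 normalized reads in WT to 415 to 437 in mKO libraries (log2 fold change −1.07 ± 0.07, adjusted p = 0.00064 by limma). Rax, a homeodomain factor of the early eye that is also found in photoreceptors, changed by −0.87 ± 0.12, adjusted p = 0.0019 by limma, in RGCs. Tbx2, a T-box factor of the photoreceptor lineage, fell in RGCs (−0.84 ± 0.09, adjusted p = 0.00087) and non-RGCs (−0.82 ± 0.15, adjusted p = 0.015 by limma). Mef2d, a cofactor of CRX, fell by 0.48 in RGCs and by 0.82 in non-RGCs on the log2 scale (adjusted p = 0.0011 and 0.0085 by limma). Casz1, a zinc finger factor, changed by −0.75 ± 0.11, adjusted p = 0.0071 by limma, in non-RGCs. The calls of Samd11 and Rax in RGCs held under every setting run, whereas those of Tbx2, Mef2d and Casz1 were lost with the trend with GC content removed.

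Onecut1, which acts in precursors of cones and horizontal cells, had 139.8 to 269 normalized reads in WT and 41.0 to 72.4 in mKO non-RGCs (log2 fold change −1.60 ± 0.32, adjusted p = 0.019 by limma). By contrast Rorb, a nuclear receptor with the highest level of the list, had log2 fold changes of 0.09 ± 0.11, adjusted p = 0.58 in RGCs and −0.18 ± 0.10, adjusted p = 0.25 in non-RGCs by limma.

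Bipolar cells share OTX2 and CRX with photoreceptors, and are mostly born after P0. Of 12 bipolar cell genes, 9 were tested in RGCs, of which Irx6 was lower (−0.35 ± 0.07, adjusted p = 0.0092 by limma) and Trpm1 higher (0.83 ± 0.18, adjusted p = 0.012), and 8 in non-RGCs, of which Trpm1 alone was called, as higher. In RGCs the call of Irx6 was lost with the trend with GC content removed and that of Trpm1 without mKO library A. Trpm1, a channel of ON bipolar cells that pigment cells also express, had 35.5 to 56.1 normalized reads in WT and 158 to 220.4 in mKO non-RGCs (log2 fold change 1.97 ± 0.25, adjusted p = 0.006 by limma).

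Markers of other cells are given beside the members, as called by limma, against 21.2% of all genes lower and 16.3% higher in RGCs and 6.43% lower and 4.18% higher in non-RGCs. Of 12 progenitor markers, 5 (41.7%) were lower and none higher in mKO RGCs, and 2 (16.7%) lower and none higher in mKO non-RGCs, and none was higher at an unadjusted p under 0.05 or by voom. In RGCs the normalized reads of the progenitor markers summed to 24316, 25436 and 36668 in WT libraries A, B and C and to 21406 to 22325 in mKO libraries, and in non-RGCs to 40398 to 49354 in WT and 29149 to 33916 in mKO libraries. WT RGC library C, the library in which most members were highest, was thus also high in progenitor markers. The 9 members summed to 7696, 7738 and 10882 in WT and 6348 to 6782 in mKO RGCs, so that each mKO library lay below each WT library with or without library C. Of 12 RGC markers, 10 (83.3%) were lower and none higher in mKO RGCs, and 8 (66.7%) were higher and none lower in mKO non-RGCs, with the same counts by voom, where Thy1 had 1.94 to 9.38 normalized reads in WT and 67.0 to 93.2 in mKO libraries. The part of these shifts in the members' results was not tested.

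The retinal pigment epithelium also depends on OTX2, and its called markers were all higher in mKO mice. Of 10 tested markers, 3 (30.0%) were higher in RGCs and 7 (70.0%) in non-RGCs by limma and by voom, against 16.3% and 4.18% of all genes. All 12 genes of the list, tested or not, summed to 420.1 to 499 normalized reads in WT and 689 to 997 in mKO libraries of RGCs. In non-RGCs they summed to 477 to 819 in WT and 1927 to 2225 in mKO libraries. Tyr, which encodes the pigment enzyme tyrosinase, changed by 2.01 ± 0.45, adjusted p = 0.013 in RGCs and 2.62 ± 0.38, adjusted p = 0.0074 in non-RGCs by limma, and its call in RGCs was lost without mKO library A. Rpe65, which defines the mature epithelium, was at 0 in all WT libraries and under 3 normalized reads in every mKO library. The part of pigment cells in the members' results was not tested.

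For the remaining lists the same shares of all genes apply. Of 12 amacrine and horizontal markers, 5 (41.7%) were lower and 2 (16.7%) higher in RGCs, the latter close to the share of all genes, and 2 (16.7%) were lower in non-RGCs. Of 7 tested astrocyte and Müller glia markers, 3 (42.9%) were lower in RGCs and 1 (14.3%) in non-RGCs. Among the microglia and blood markers limma called 5 genes higher in each fraction, the globins and the erythroid gene Alas2. No microglial gene was called by limma in RGCs, where 4 of them (Csf1r, C1qa, C1qb and C1qc) were lower at an unadjusted p under 0.05, voom called C1qa lower, and 3 were called without mKO library A and 2 without WT library A. Of 10 tested endothelial and pericyte markers 1 was lower in RGCs, under the share of all genes, and none was called in non-RGCs by limma, where 4 were lower at an unadjusted p under 0.05 and 1 by voom. Of the lens markers, 4 were tested in RGCs and 3 in non-RGCs, and none was called or had an unadjusted p under 0.05 by limma or was called by voom.

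As a description of likeness, log2 values were correlated over the 12 libraries after each table was centred on its own mean, among the 11748 genes whose mean reached 50 normalized reads in each of the 4 groups. The 12 libraries share genotypes, fractions and depth, so that no p-value is given. The genes outside the members most like Crx were Trib1 (r = 0.99), Tfap2a (r = 0.99) and Mgat1 (r = 0.99), those most like Nrl were Mgat1 (r = 0.99), Tfap2a (r = 0.99) and Zfp787 (r = 0.99), and those most like Otx2 were Dhx32 (r = 0.98), Hadha (r = 0.98) and Ctbp2 (r = 0.98). Among the members, Crx correlated with Nrl at r = 0.99, with Otx2 at 0.98 and with Nr2e3 at 0.98, less with Prdm1 (0.79) and Aipl1 (0.77), hardly with Rxrg (−0.00) and inversely with Thrb (−0.50). Trib1 (0.994), Tfap2a (0.994) and Mgat1 (0.990) were each more like Crx than Nrl (0.988), the closest member, was. Tfap2a is in the list of amacrine and horizontal markers. Rcvrn did not reach the minimum mean.

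The estimates were more stable than the calls. Crx, Nrl, Nr2e3 and Otx2 had negative estimates in both fractions under every setting run, as did Prdm1 in non-RGCs, and Thrb had positive ones in both. With CPM in place of size factors, the median of all genes moved from −0.00 to 0.12 in RGCs and from −0.03 to 0.15 in non-RGCs, the share of higher genes among the calls moved from 43.5 to 63.3% and from 39.4 to 75.0%, and 3 members were lower in RGCs and 1 (Nrl) in non-RGCs. With the trend with GC content removed, 3 members (Crx, Nrl and Otx2) were lower in RGCs and 1 (Prdm1) in non-RGCs. With the trends with both GC content and reads per base removed, no member was called in either fraction by limma. Nrl was nearest, at −0.70 in RGCs (adjusted p = 0.052 by limma) and −0.61 in non-RGCs (0.055), and 549 genes in all were then lower in RGCs and 92 in non-RGCs.

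**Figure D5:**
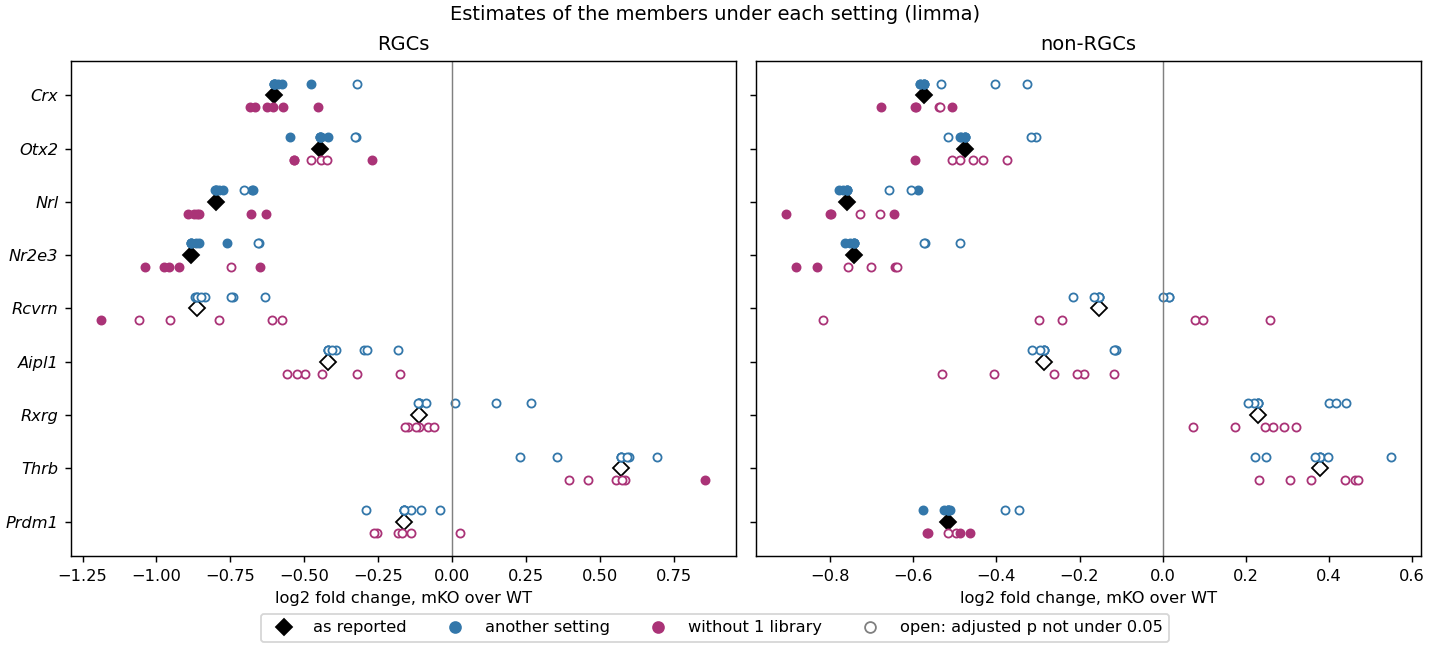
Log2 fold change of mKO over WT (horizontal axes) of the 9 members in RGCs and non-RGCs as reported (diamonds), under each other setting (upper circles) and without each library in turn (lower circles); filled symbols passed an adjusted p of 0.05 in limma. Crx, Otx2, Nrl and Nr2e3 stay left of 0 in both fractions while their symbols turn from filled to open, most often in non-RGCs.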

How the data were processed

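RNA-seq of 12 libraries, 3 for each genotype and fraction, was analysed from 2 tables, one for RGCs and one for non-RGCs. As deposited by the authors, each table holds a signal per gene, namely the group mean over 3 libraries of reads divided by the DESeq size factor of each library. Per the labels and the study's methods, polyadenylated RNA from separate extractions was sequenced from a single end, reads were aligned to mm10 with STAR 2.3.1z4, duplicates were removed and primary alignments were counted per gene with featureCounts, whose version is not given in the sources used here. The tables also hold the authors' pooled means, fold changes and p-values, which were not used. No per-sample column was left out.

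Since the means carry 15 digits, the size factors and the reads of each library were solved from them, and every gene with reads had exactly 1 combination of whole reads in its group. A recovered library could be tied to its group but not to a replicate number. Precision is limited by the 7139633 to 13014004 reads per library and by 3 libraries a group.

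Genes that reached a mean of 10 normalized reads in one genotype or the other were tested on log2(normalized reads + 1) with limma 3.58.1 in R 4.3.3 (variance trend, two-sided, Benjamini-Hochberg adjustment over all genes of a table, threshold 0.05), so that fold changes of low genes are understated. Whether the labels' replicates were separate animals is not stated, and p-values measure the spread between these libraries. An exact permutation of 3 against 3 libraries cannot pass the threshold and was not used. The procedure was tested on simulated data. Alternatives were a pseudocount of 0.5, every gene with a read, a minimum mean of 50, scaling by total reads (CPM), median centring, removal of each library's trend with GC content alone or also with reads per base, voom on the recovered reads, and each library left out. Gene positions, exon lengths and GC content came from GENCODE M21 (GRCm38), promoters from RefSeq (GRCm38.p6), and Python 3.11.15 with numpy 2.4.6, pandas 2.3.3 and matplotlib 3.10.9 was used.

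The members, the gene lists and the tests were chosen with earlier results of these data known. Named were all members, Ezh2, at most 5 genes per list with the largest called change in a comparison and at most 5 with the highest level, and the 3 genes most like Crx, Nrl and Otx2. Other genes were named after their values were seen. Values of some single genes of the lists are not reported here.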

Additional observations from a re-analysis of the deposited data

Results flagged for a closer look

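For none of the 9 members was a difference in the mKO effect between fractions called. Among all the genes of the lists, 5 did by the interaction test in limma, all of them RGC markers, and each had a more negative mKO effect in RGCs than in non-RGCs. The difference in log2 fold change was −4.60 for Thy1 (adjusted p = 0.0011), −2.21 for the synuclein gene Sncg (adjusted p = 0.0011), −2.16 for Pou4f2, a transcription factor of RGCs (adjusted p = 0.012), −1.48 for the neurofilament gene Nefl (adjusted p = 0.0023) and −1.05 for Nefm (adjusted p = 0.028). The calls of Thy1 and Sncg held under every setting run, that of Nefl was lost with both the GC content trend and the reads per base trend taken out, and those of Nefm and Pou4f2 were lost there and without any 1 of several libraries. Thy1 encodes the antigen by which the fractions were separated. Groups of 3 libraries are too small for a test of single outlying libraries, and none was made.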

How the results depend on the processing

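No paired analysis was possible because the recovered libraries carry no replicate number. Under the settings other than leaving out a library, 62 of the 72 log2 fold changes of members in RGCs and 55 of 72 in non-RGCs kept direction and call. With CPM, the RGC table gave 2238 lower genes, the non-RGC table gave 448 lower and 1346 higher genes with 1 member lower, and 27 genes had a lower effect in RGCs. Removing the trend with GC content gave 1449 lower and 680.0 higher genes in RGCs, and 73 lower and 115 higher in non-RGCs with 1 member lower. Removing both that trend and the one with reads per base gave 549 lower and 292 higher genes in RGCs, 92 lower and 106 higher in non-RGCs, 0 members lower in either, and 3 genes with a lower effect in RGCs. With every gene that had a read, 1 gene had a higher effect in RGCs.

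Signs turned for Rxrg in RGCs (0.0091 with CPM, 0.15 without the GC trend, 0.27 without both trends), for Rcvrn in non-RGCs (0.016, 0.015 and 0.00092 under the same settings), and for the difference between fractions of Otx2 (−0.020, −0.033 and −0.011) and of Crx (0.0097 with median centring and 0.0044 without both trends). None of these values passed the test in limma.

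Without each library in turn, RGCs gave 2309 to 4454 lower and 1427 to 3730.0 higher genes, 2 to 5 members lower and 0 to 1 higher. Non-RGCs gave 93 to 1130.0 lower and 48 to 724 higher genes and 0 to 5 members lower. The interaction gave 7 to 51 genes with a lower and 0 to 210.0 with a higher effect in RGCs, the last without mKO non-RGC library A. The log2 fold change ran from −0.26 to 0.025 for Prdm1 in RGCs and from −0.82 to 0.26 for Rcvrn in non-RGCs. The difference between fractions ran from −0.11 to 0.12 for Crx, −0.15 to 0.13 for Nrl, −0.073 to 0.21 for Otx2, −0.30 to 0.093 for Nr2e3 and −0.30 to 0.11 for Aipl1. The cause of these changes was not tested, beyond the smaller number of libraries. Rcvrn, with as few as 27 reads in a library, was the member most limited by depth.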
